A study of Mus musculus with 22 samples.

Results

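The genes described here encode the proteasome and its relatives: every gene on the array whose symbol begins with Psma, Psmb, Psmc, Psmd or Psme. There were 45 of them among 19505 genes with a symbol, each measured by 1 probe set, and they were followed in cultured mouse macrophages given bacterial lipopolysaccharide (LPS), the leucine metabolite β-hydroxy-β-methylbutyrate (HMB), both or neither. The macrophages were grown from the bone marrow of C57/bl6 mice in medium conditioned by L929 cells, and no age or sex is given in the sources used here. The groups were HMB+LPS (5 arrays, numbers 2 to 6), LPS (5 arrays, numbers 2 to 6), HMB (6 arrays, numbers 1 to 6) and Ctrl (6 arrays, numbers 1 to 6), with HMB at 1 mM, LPS at 10 ng/ml and 48 h of treatment. Whether the replicates came from different mice or different cultures is not stated in the labels, and the p-values therefore reflect only how far these arrays varied, which may be technical.

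The proteasome degrades proteins that carry ubiquitin. Its 20S core is a barrel with outer rings of alpha subunits (Psma) and inner rings of beta subunits (Psmb), and only some of the beta subunits cut proteins. The 19S cap, with its ATPases (Psmc) and its other base and lid subunits (Psmd), recognizes, unfolds and feeds in the substrate. In immune cells, and in many other cells exposed to interferon-γ, the cutting subunits Psmb5, Psmb6 and Psmb7 can be replaced by Psmb8, Psmb9 and Psmb10. The resulting immunoproteasome is known for making peptides that fit MHC class I, and the PA28 ring of Psme1 and Psme2 is a cap induced by the same cytokine.

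The 45 genes comprised 5 of the immunoproteasome and PA28 (Psmb8, Psmb9, Psmb10, Psme1 and Psme2), 7 alpha and 6 constitutive beta subunits of the core, 6 ATPases, 3 other base subunits and 8 lid subunits. A further 3 were chaperones of base assembly (Psmd5, Psmd9 and Psmd10), 3 were other activators (Psme2b, Psme3 and Psme4) and 2 were core subunits used in particular tissues (Psma8 in testis and Psmb11 in thymus). The last 2, Psmc3ip and Psme3ip1, fit the symbols but are not subunits. Psmb5 was not matched to a probe set and is not analysed here. Psme2b is a near-copy of Psme2, so signal may cross between their probe sets.

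Signals are log2 units as deposited, and levels are not set against each other between genes, because probe sets differ in brightness. Of the 45 genes, 34 lay above the 95th percentile of the negative control probe sets on all 22 arrays. Psma8, Psmb11 and Psmc3ip lay above it on none, Psmd9 on 4, Psmb10 on 15, Psmd6 on 16, Psmd5 on 17, Psmc5 on 18, Psmb3 and Psmd10 on 20, and Psmc4 on 21. The mean of the positive controls stood above that of the negative controls by 3.65 to 5.26 log2 units, and by under 4 on 6 arrays (HMB+LPS 2 and 3, LPS 2 and 5, HMB 1 and Ctrl 1). Macrophage markers were above the percentile on all arrays for 6 of 7 genes. Of the defining markers of other cells, none of 7 lymphocyte and none of 7 dendritic cell genes exceeded it on any array, and 7 of 8 neutrophil genes did not, S100a8 being the exception. Of 6 fibroblast genes, 3 did not, Col1a1 did on Ctrl 3 alone, Col1a2 did on HMB 2 alone, and Dcn did on 6 arrays described below. In such bulk samples, fewer cells of a type and less RNA per cell cannot be told apart.

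Arrays also fell into 2 sets that the study does not name. Macrophages without LPS differed between numbers 5 and 6 on one side and numbers 1 to 4 on the other. Along that difference, measured on 3219 probe sets that leave out the proteasome genes, HMB+LPS 5 and 6 and LPS 3 and 6 also lay with numbers 5 and 6. These 8 arrays are called set B (positions of 0.770 to 0.986, where numbers 1 to 4 lie near 0 and numbers 5 and 6 near 1) and the other 14 set A (−0.356 to 0.302). The sets were read from the data, and whether they reflect culture, animal or processing was not tested. All 6 arrays with a control separation under 4 were in set A. Results are given over all arrays first and then within each set.

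The genes of the immunoproteasome and PA28 did not differ detectably with LPS. None of the 5 passed the threshold in either comparison that asks what LPS did, with HMB or without it, and their log2 differences lay between −0.45 and 0.35. The limma fit called 3.54% of all 22206 probe sets for HMB+LPS minus HMB and 1.86% for LPS minus Ctrl (Benjamini-Hochberg adjusted p under 0.05), and 0 of these 5 genes had an unadjusted p under 0.05. By the methods' t-test, 9 and 11 of all 45 genes passed before adjustment and 1 and 0 after it. Of all 22206 probe sets, 3335 and 2809 passed before adjustment and 423 and 9 after it.

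Psmb8, the immune counterpart of Psmb5, read 14.77, 14.26, 13.92, 14.54 and 14.60 log2 units on the HMB+LPS arrays (numbers 2 to 6 here and below), against a lowest, median and highest of 13.89, 14.31 and 14.88 in HMB. It read 14.48, 14.36, 14.05, 14.90 and 14.35 in LPS, against 13.83, 14.34 and 14.88 in Ctrl. The groups overlapped almost completely, and LPS minus Ctrl came to 0.07 ± 0.24 (SE; 95% interval −0.42 to 0.56; adjusted p = 0.932).

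Psmb9, the counterpart of Psmb6, read 12.26, 12.26, 12.63, 11.76 and 11.67 in HMB+LPS, against 11.35, 12.27 and 12.48 in HMB. It read 12.65, 12.003, 12.64, 12.34 and 12.25 in LPS, against 11.49, 12.32 and 12.71 in Ctrl. Here the low values were those of set B in every group, and the difference was 0.11 ± 0.27 for HMB+LPS minus HMB and 0.18 ± 0.27 for LPS minus Ctrl (adjusted p = 0.913 and 0.832).

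Psmb10, the counterpart of Psmb7, spread most among these genes in the groups with LPS. It read 11.10, 10.32, 10.69, 12.23 and 12.30 in HMB+LPS, against 10.93, 11.54 and 12.11 in HMB, and 10.63, 12.38, 11.15, 10.87 and 12.19 in LPS, against 10.84, 11.83 and 12.20 in Ctrl. In both groups with LPS the arrays of set B read above 12 and those of set A at or below 11.15. Over both sets the differences were −0.20 ± 0.38 for HMB+LPS minus HMB and −0.30 ± 0.38 for LPS minus Ctrl (adjusted p = 0.887 and 0.796). On the 6 arrays of low control separation Psmb10 read 11.10, 10.32, 10.63, 10.87, 10.93 and 10.84 (HMB+LPS 2 and 3, LPS 2 and 5, HMB 1 and Ctrl 1); the part of that separation in its values was not tested.

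The PA28 genes showed the same split less widely. Psme1 read 14.80, 14.54, 14.68, 15.29 and 15.31 in HMB+LPS, against 14.49, 15.51 and 15.71 in HMB, and 14.89, 15.24, 14.67, 14.55 and 15.53 in LPS, against 14.95, 15.13 and 15.75 in Ctrl. Its differences were −0.45 ± 0.25 and −0.24 ± 0.25 for HMB+LPS minus HMB and for LPS minus Ctrl (adjusted p = 0.405 and 0.732). Psme2 read 13.68, 13.54, 13.34, 14.19 and 14.11 in HMB+LPS, against 12.43, 13.57 and 14.00 in HMB, and 13.48, 13.70, 13.24, 13.39 and 13.82 in LPS, against 12.99, 13.42 and 14.24 in Ctrl. Its differences, 0.35 ± 0.26 and 0.01 ± 0.26, did not pass either (adjusted p = 0.6 and 0.992).

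The constitutive counterparts did not differ detectably either. Psmb6 read 14.42, 14.32, 14.12, 14.57 and 14.75 in HMB+LPS, against 13.98, 14.12 and 14.87 in HMB, and 14.43, 14.48, 13.80, 13.73 and 14.46 in LPS, against 13.83, 14.13 and 14.59 in Ctrl. Psmb7 read 14.27, 13.79, 13.77, 14.37 and 14.42 in HMB+LPS, against 13.52, 13.87 and 14.43 in HMB, and 13.58, 14.34, 14.02, 14.13 and 14.33 in LPS, against 13.63, 13.80 and 14.24 in Ctrl. All groups overlapped for both genes, and HMB+LPS minus HMB was 0.13 ± 0.22 for Psmb6 and 0.23 ± 0.21 for Psmb7, and LPS minus Ctrl −0.03 ± 0.22 and 0.19 ± 0.21.

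**Figure D1:**
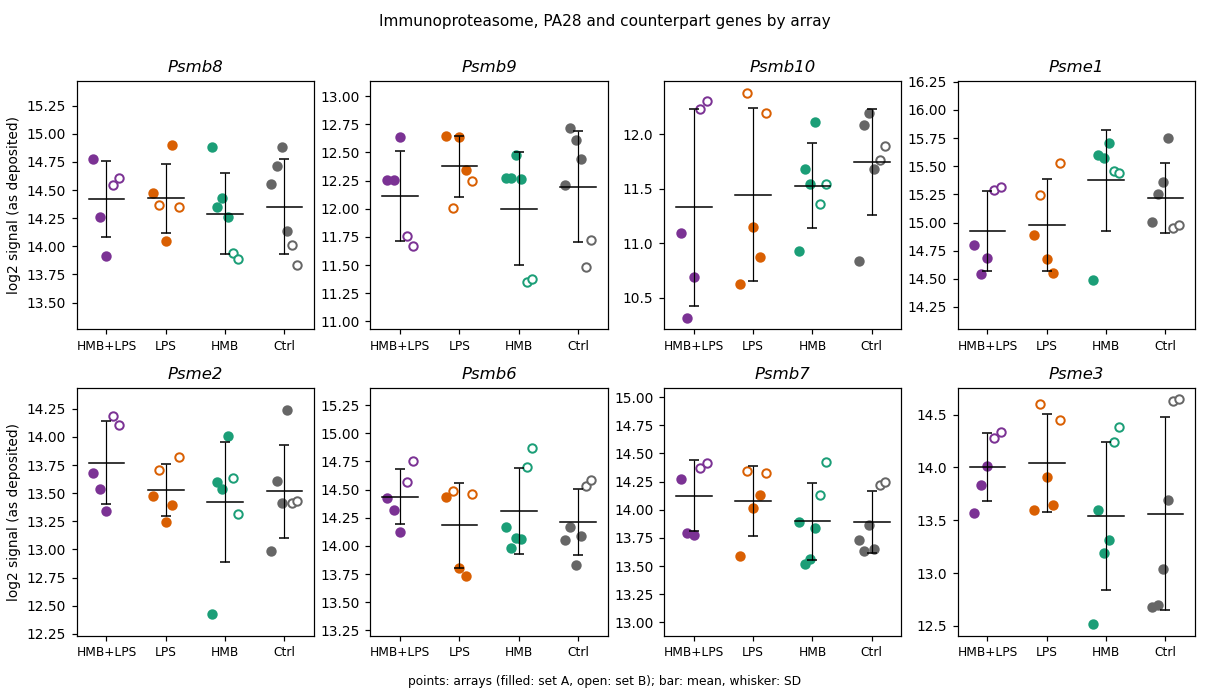
Log2 signal on each array (vertical axis, log2 units as deposited) of Psmb8, Psmb9, Psmb10, Psme1, Psme2, their counterparts Psmb6 and Psmb7, and the nuclear activator Psme3, in HMB+LPS (n = 5), LPS (n = 5), HMB (n = 6) and Ctrl (n = 6). Points are arrays, filled for set A and open for set B, bars are means and whiskers SD; the groups overlap for every gene shown, and for some genes open and filled points separate within groups, as for Psmb10 with LPS (open above 12, filled at or below 11.15) and for Psmb9 in all groups.

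LPS raised 2 of the 45 genes in both comparisons, the assembly chaperone Psmd10 and the alpha subunit Psma6, and lowered none. The fit called 1.99% of all probe sets higher and 1.54% lower for HMB+LPS minus HMB, and 1.08% higher and 0.788% lower for LPS minus Ctrl. The comparisons share no array, although they share the estimate of spread. Across the 45 genes the median difference was 0.24 log2 units in each, against −0.01 and 0.00 over all probe sets, and 35 and 34 genes lay above 0.

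Psmd10, also named gankyrin, helps to assemble the ATPase ring of the 19S base and leaves the finished particle. It read 12.55, 12.49, 12.61, 12.23 and 12.55 log2 units in HMB+LPS, against a lowest, median and highest of 10.76, 11.00 and 11.10 in HMB. It read 12.57, 11.40, 12.60, 12.26 and 11.54 in LPS, against 10.91, 10.99 and 11.21 in Ctrl. No array with LPS fell into the range of those without it, and LPS 3 and LPS 6, both of set B, were the lowest with LPS. The gene rose by 1.53 ± 0.21 in HMB+LPS over HMB (95% interval 1.11 to 1.96; adjusted p = 0.000119) and by 1.03 ± 0.21 in LPS over Ctrl (0.60 to 1.46; adjusted p = 0.00923). Without the 6 arrays of low control separation the second difference was 0.78 and no longer passed (adjusted p = 0.316).

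The stretch before the start of Psmd10 is shown because this gene had the largest called difference over all arrays (chrX:140956712-140956961, minus strand, GRCm38.p6, 250 bases up to the start, from RefSeq). No letters are in capitals, since none of the motifs searched here (described with Psmb8 below) was in this window.
Psmd10: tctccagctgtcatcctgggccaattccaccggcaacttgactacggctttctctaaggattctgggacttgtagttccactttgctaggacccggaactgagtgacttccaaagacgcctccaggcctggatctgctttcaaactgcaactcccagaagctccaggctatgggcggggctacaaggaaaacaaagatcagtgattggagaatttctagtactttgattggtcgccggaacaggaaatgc

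Psma6 is one of the subunits of the alpha ring. It read 14.42, 14.65, 14.87, 13.98 and 14.10 in HMB+LPS, against 12.91, 13.67 and 13.96 in HMB, and 14.56, 13.89, 14.83, 14.56 and 13.87 in LPS, against 13.08, 13.41 and 13.69 in Ctrl. The groups did not overlap, but the margin was narrow, with HMB+LPS 5 only just above the highest HMB array. The gene rose by 0.85 ± 0.24 in HMB+LPS over HMB (adjusted p = 0.0493) and by 0.94 ± 0.24 in LPS over Ctrl (adjusted p = 0.0423), both close to the threshold. Over 33 alternatives it lost that call in 20 and 15, and the adjusted p reached 0.432 in LPS minus Ctrl without the arrays of low control separation.

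In all, groups with and without LPS did not overlap for 3 of the 45 genes in HMB+LPS over HMB (Psma2, Psma6 and Psmd10) and for 5 in LPS over Ctrl (Psma3, Psma6, Psmc1, Psmc5 and Psmd10), every time with LPS higher. The same held for 2.18% and 1.26% of all probe sets, and for 1.96% and 1.11% with LPS lower. The alpha ring lay to 1 side, with all 7 subunits above 0 in both comparisons and medians of 0.52 and 0.45, whereas the 6 constitutive beta subunits had medians of 0.15 and 0.08. Whether these classes differ was not tested.

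Other genes came near the threshold. Psmd5, like Psmd10 a chaperone of the base, read 12.56, 12.28, 12.33, 11.99 and 11.77 in HMB+LPS, against 10.27, 10.81 and 12.02 in HMB, and 12.60, 11.91, 12.21, 11.76 and 11.90 in LPS, against 10.22, 10.73 and 11.84 in Ctrl. Its high values without LPS were those of numbers 5 and 6, and its differences of 1.17 ± 0.34 and 1.12 ± 0.34 did not pass (adjusted p = 0.0601 and 0.099). The ATPase Psmc5 read 11.95, 11.13, 11.65, 11.71 and 11.57 in HMB+LPS, against 10.06, 10.69 and 11.29 in HMB, and 11.88, 11.42, 11.59, 11.72 and 11.61 in LPS, against 9.86, 10.92 and 11.33 in Ctrl. Its differences were 0.92 ± 0.26 and 0.83 ± 0.26 (adjusted p = 0.0547 and 0.114). The alpha subunit Psma3 read 13.20, 12.34, 12.27, 12.34 and 12.12 in HMB+LPS, against 11.46, 11.92 and 12.28 in HMB, and 12.97, 12.41, 12.43, 12.74 and 12.55 in LPS, against 11.64, 11.89 and 12.26 in Ctrl. The differences of Psma3 were 0.60 ± 0.21 and 0.70 ± 0.21 (adjusted p = 0.136 and 0.101).

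**Figure D2:**
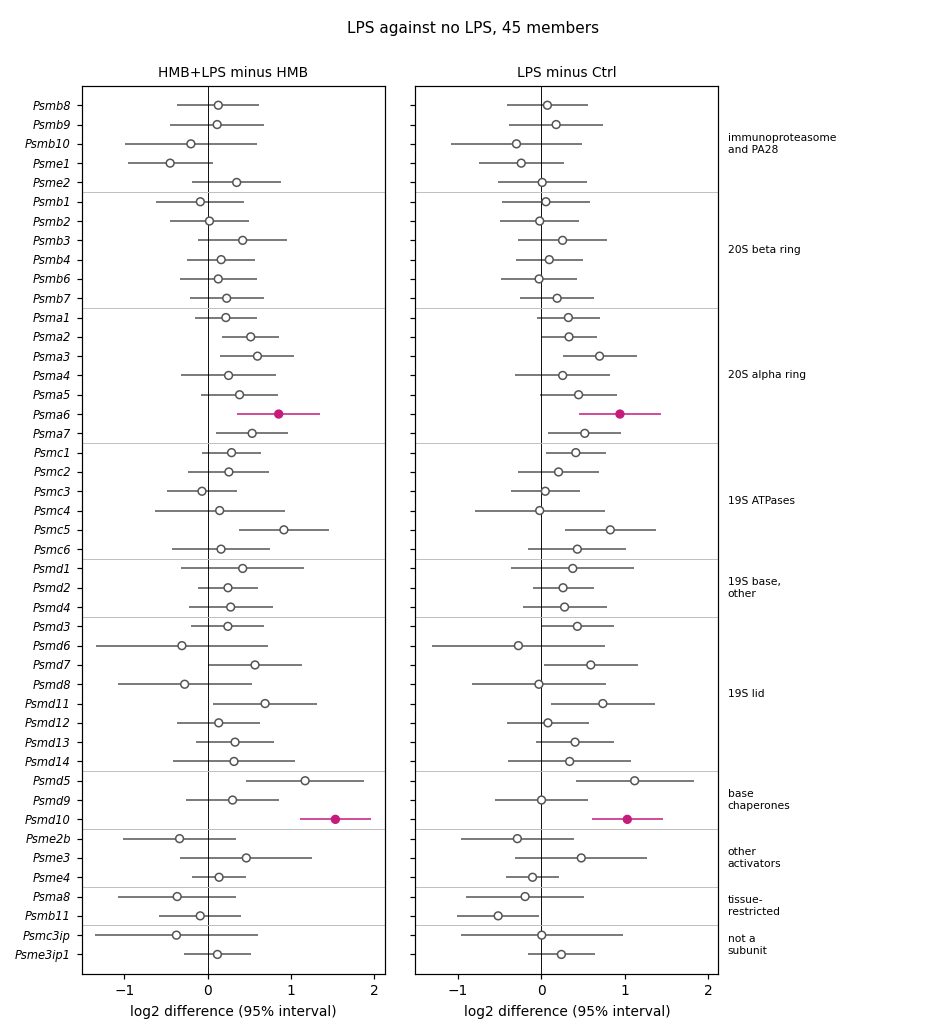
Log2 difference (horizontal axis, with 95% interval) of each of the 45 genes for HMB+LPS minus HMB and for LPS minus Ctrl, grouped by role. Filled points passed the threshold: Psma6 and Psmd10 in both panels, while the 5 genes of the immunoproteasome and PA28 lay between −0.45 and 0.35.

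**Figure D3:**
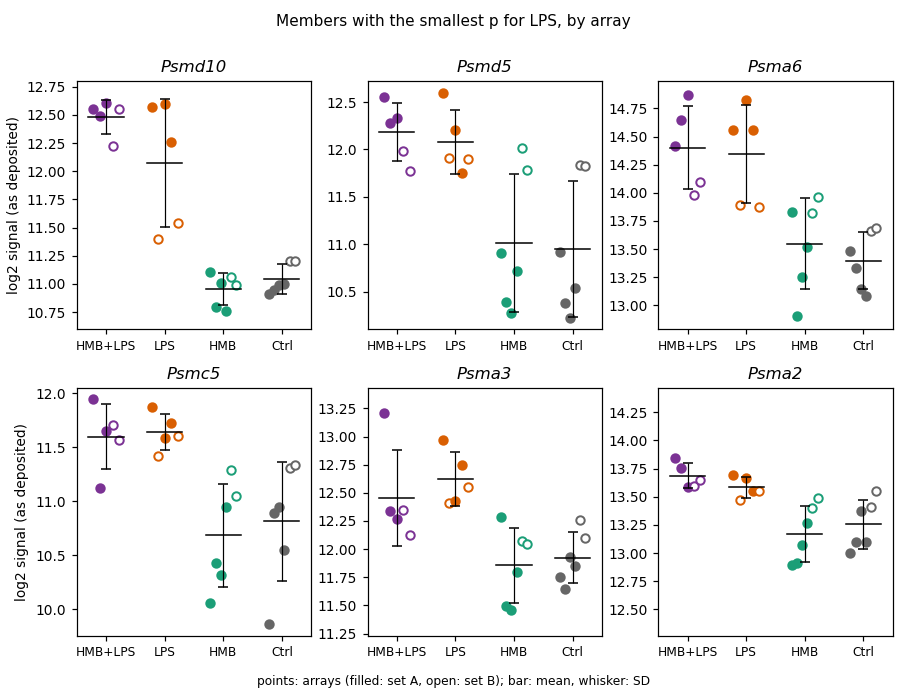
Log2 signal on each array (vertical axis, log2 units as deposited) of 6 genes among those with the smallest p for LPS, in HMB+LPS (n = 5), LPS (n = 5), HMB (n = 6) and Ctrl (n = 6). Points are arrays, filled for set A and open for set B, bars are means and whiskers SD; Psmd10 does not overlap between arrays with and without LPS, while the open points of Psmd5 lie between 11.77 and 12.02 in every group.

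Genes that work with the proteasome were taken from 4 lists. Of 10 measured genes of assembly and regulation, 1 rose in HMB+LPS over HMB, the core maturation factor Pomp (0.98 ± 0.27, adjusted p = 0.0437), and none passed in LPS over Ctrl. Of 11 associated factors, ubiquitin genes and shuttles, and of 15 genes of class I antigen processing, none passed in either comparison. Of 14 interferon regulators, 3 rose in HMB+LPS over HMB: Irf7, a regulator of type I interferon genes (3.26 ± 0.55, adjusted p = 0.00107), the kinase Jak2 (2.84 ± 0.75, adjusted p = 0.0358) and Socs1, an inhibitor of cytokine signalling (adjusted p = 0.00863). Irf7 also rose in LPS over Ctrl, by 2.46 ± 0.55 (adjusted p = 0.0208), as did Socs1 (adjusted p = 0.0184). Socs1 exceeded the percentile of the negative controls on only 2 of 22 arrays, both with LPS, so no size is given for it.

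Within set A, more of the 45 genes were called with LPS than over all arrays, as were more of all probe sets. In either direction, 14.1% of all probe sets were called there for HMB+LPS minus HMB and 15.2% for LPS minus Ctrl. Over all arrays these shares were 3.54% and 1.86%. None of the 5 immune genes passed in set A with all arrays in the fit. There, in a limma fit of 8 means, 8 of the 45 genes rose in HMB+LPS over HMB (3 against 4 arrays) and 9 in LPS over Ctrl (3 against 4 arrays), and none fell. Of all probe sets, 5.94% and 6.12% were called higher and 8.11% and 9.04% lower. The genes that rose in both were Psma3, Psma6, Psmc5, Psmd5, Psmd7, Psmd10 and Psmd11, 7 genes that make up 87.5% of the first list and 77.8% of the second. Psmd7 and Psmd11 are subunits of the 19S lid.

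The chaperones Psmd5 and Psmd10 had the largest rises in set A, while the third, Psmd9, did not pass (0.44 in HMB+LPS minus HMB and −0.02 in LPS minus Ctrl). Psmd5 rose by 1.82 ± 0.24 in HMB+LPS over HMB and by 1.67 ± 0.24 in LPS over Ctrl, and Psmd10 by 1.63 ± 0.18 and 1.51 ± 0.18. Psma6 rose by 1.27 ± 0.22 and 1.39 ± 0.22, Psmc5 by 1.13 ± 0.27 and 1.17 ± 0.27, and Psmd11 by 1.16 ± 0.28 and 1.21 ± 0.28. Some set A arrays lay under the percentile of the negative controls for Psmd5 (HMB 1 and 3, Ctrl 1, 2 and 3), Psmc5 (HMB+LPS 3, HMB 1 and 3, Ctrl 1) and Psmd10 (HMB 1 and Ctrl 1), so these differences are partly set against background signal. The alpha subunit Psma2 rose in HMB+LPS over HMB alone (0.70 ± 0.18, adjusted p = 0.0118), and Psma7 and the lid subunit Psmd3 in LPS over Ctrl alone (0.76 ± 0.24 and 0.77 ± 0.21, adjusted p = 0.0355 and 0.0182), with no test of whether the comparisons differ there. Without arrays of low control separation, which left 1 array with LPS in each comparison and borrowed its spread from the other groups, Psma6, Psmd5, Psmd7 and Psmd10 still passed in both, as 4 of 4 genes called in LPS minus Ctrl (13.3% of all probe sets) and among 8 in HMB+LPS minus HMB (13%), where Psmb10 and Psme1 were called lower.

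Of the immune genes, Psmb10 and Psme1 lay furthest below 0 in set A. Psmb10 was at −0.87 ± 0.31 in HMB+LPS minus HMB and −0.82 ± 0.31 in LPS minus Ctrl, and Psme1 at −0.67 ± 0.26 and −0.64 ± 0.26, without passing (adjusted p = 0.0765, 0.0901, 0.11 and 0.118). Whether they passed depended on the arrays in the fit. Without HMB 1, it called 13 and 14 genes (15.6% and 17.5% of all probe sets), and Psme1 fell in both comparisons (−0.95 and −0.64, adjusted p = 0.00359 and 0.0294) and Psmb10 in HMB+LPS minus HMB (−1.08, adjusted p = 0.0218). Without the arrays of low control separation, HMB+LPS minus HMB was −1.09 for Psmb10 and −0.94 for Psme1 (adjusted p = 0.026 and 0.0266, 1 array with LPS), and neither passed in LPS minus Ctrl. Psmb10 lay under the percentile of the negative controls on 5 of the 6 set A arrays with LPS. Without HMB+LPS 2, the fit called 4 for HMB+LPS minus HMB (11.8% of all probe sets), namely Psma6, Psmd5, Psmd7 and Psmd10. Psmb8, Psmb9 and Psme2 stayed between −0.19 and 0.13 in set A with all its arrays.

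In set B, with 2 arrays per group, 1 gene passed in HMB+LPS over HMB, where 0.838% of all probe sets were higher and 0.239% lower. None passed in LPS over Ctrl, where 0.0901% were higher and 0.0045% lower, 0.0946% in all. At an unadjusted p under 0.05, 1 gene was higher and 1 lower in the first comparison and 0 in the second. The share of all probe sets at that unadjusted threshold is not given here, so these counts are not read as a result. The gene that passed after adjustment was Psmd10. It read 12.23 and 12.55 in HMB+LPS 5 and 6, against 11.06 and 10.99 in HMB 5 and 6, a rise of 1.36 ± 0.24 (adjusted p = 0.00355). In LPS 3 and 6 it read 11.40 and 11.54, against 11.20 and 11.21 in Ctrl 5 and 6 (0.27 ± 0.24). The 5 immune genes were all above 0 in LPS minus Ctrl in set B, by 0.34 to 0.52, and 4 of 5 were above 0 in HMB+LPS minus HMB. There Psmb10 was at 0.82 ± 0.41, Psme2 at 0.67 ± 0.41, Psmb8 at 0.66 ± 0.33, Psmb9 at 0.35 ± 0.25 and Psme1 at −0.14 ± 0.34, with adjusted p between 0.668 and 0.999.

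The difference between the sets was tested directly. For LPS minus Ctrl it was called for Psmd5 (set B minus set A −1.60 ± 0.39, adjusted p = 0.0264) and Psmd10 (−1.25 ± 0.30, adjusted p = 0.0236). Of all probe sets, 3.1% were called, 1.86% in the positive direction and 1.23% in the negative. For HMB+LPS minus HMB it was called for Psmd5 (−1.84 ± 0.39, adjusted p = 0.0149), against 2.04% of all probe sets, 1.3% positive and 0.743% negative. Psmd5 read 11.99 and 11.77 in HMB+LPS 5 and 6 and 11.91 and 11.90 in LPS 3 and 6, against 12.02 and 11.79 in HMB 5 and 6 and 11.84 and 11.83 in Ctrl 5 and 6. Its level in set B without LPS was thus within the range of 11.76 to 12.60 that it reached with LPS in set A. For the 5 immune genes the difference between sets was above 0 in both comparisons without passing (Psmb10 1.68 ± 0.52 and 1.28 ± 0.52, adjusted p = 0.116 and 0.26). These calls rested on single arrays, since leaving out any 1 of Ctrl 5, Ctrl 6, LPS 3 or LPS 6 brought the count for LPS minus Ctrl to 0, and any 1 of HMB 5, HMB 6, HMB+LPS 5 or HMB+LPS 6 that for HMB+LPS minus HMB to 0.

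The sets differed in much besides the proteasome. Jak2, above the percentile on all arrays, rose by 3.96 ± 0.23 in HMB+LPS over HMB and by 3.78 ± 0.23 in LPS over Ctrl in set A, and set B minus set A was −2.65 ± 0.37 and −2.85 ± 0.37 (adjusted p = 0.000391 and 0.000126). All 4 proliferation markers measured (Mki67, Top2a, Ccna2 and Ube2c) fell with LPS in set A, where none exceeded the percentile on any of the 6 arrays with LPS, and none passed in set B. The mean of the 4 ranged from 5.32 to 6.61 on those 6 arrays and from 10.2 to 13.4 on the other 16.

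The fibroblast gene Dcn read 11.91 to 12.78 on the same 6 arrays and 2.97 to 5.00 on the other 16, and Lum read 8.75 to 9.89 and 3.28 to 6.01, under the percentile throughout. The other 4 fibroblast genes (Col1a1, Col1a2, Col3a1 and Thy1) were under it on those 6 arrays, and the mean of all 6 ranged from 6.99 to 7.72 there, against 6.31 to 7.54 on set A arrays without LPS. In set B it ranged from 4.89 to 6.13 with LPS and from 4.93 to 5.34 without. The part of cell division or of other cells in the proteasome genes was not tested.

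**Figure D4:**
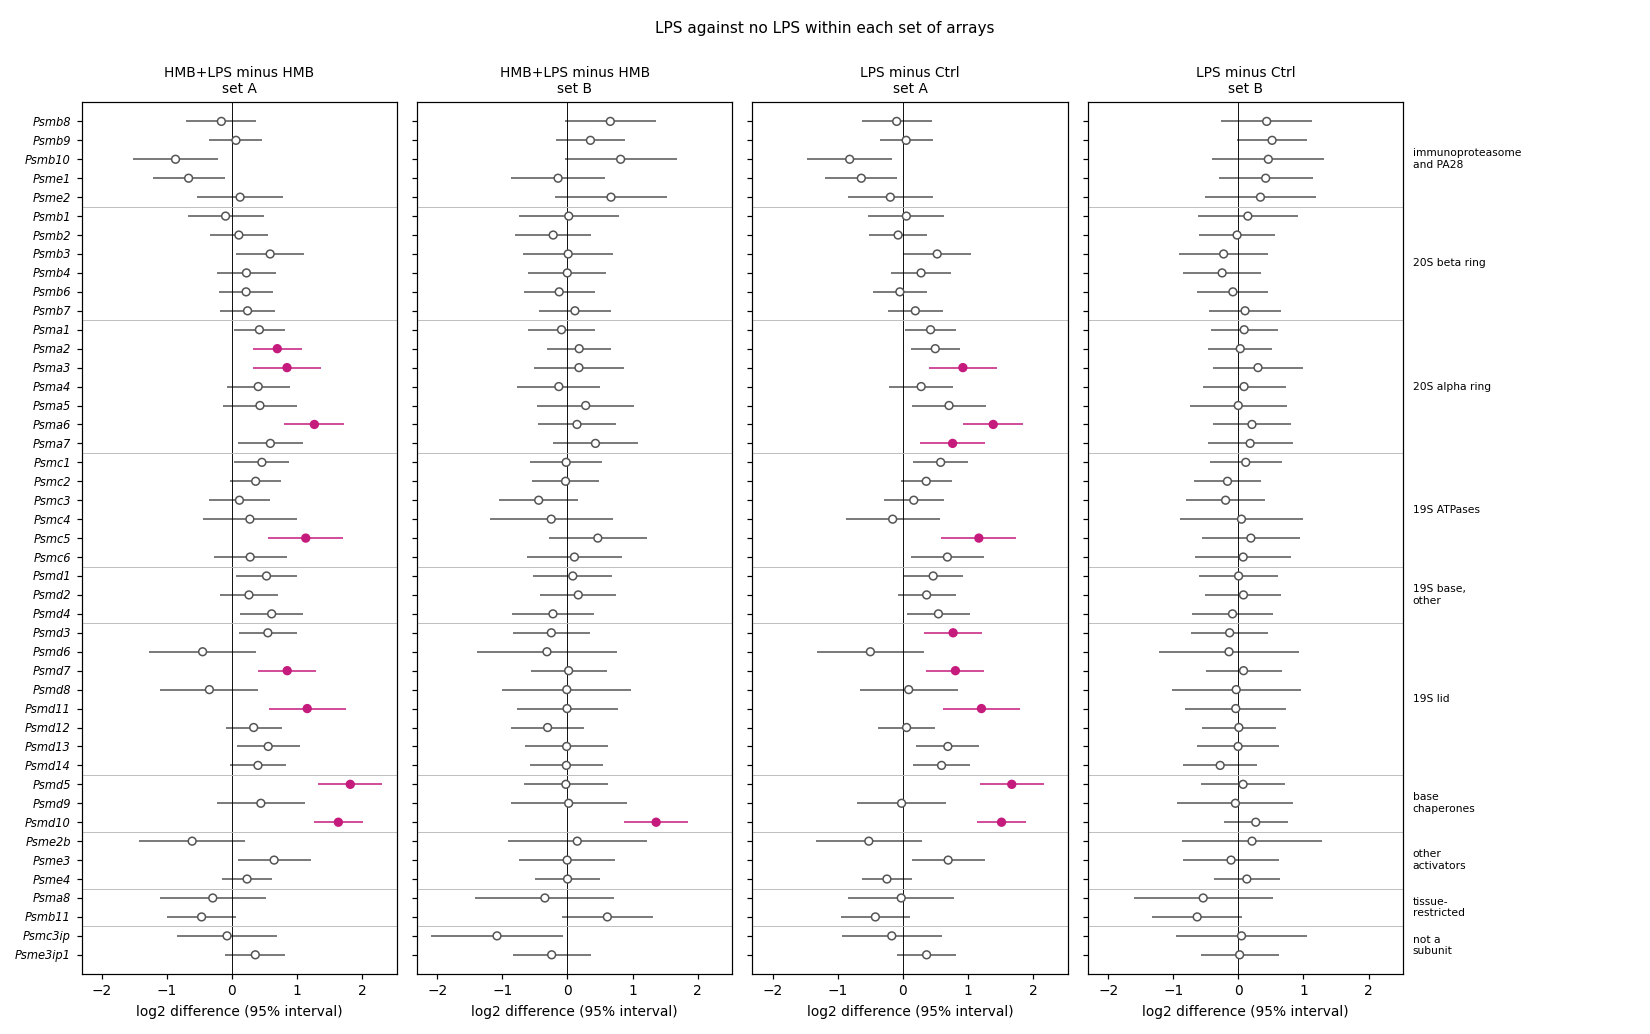
Log2 difference (horizontal axis, with 95% interval) of each of the 45 genes within set A (3 arrays with LPS against 4 without, per comparison) and set B (2 against 2), for HMB+LPS minus HMB and LPS minus Ctrl. Filled points passed the threshold: 8 and 9 genes in set A, all to the right, and 1 (Psmd10, HMB+LPS minus HMB) and 0 in set B.

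In a fit that counts every array, more of the 45 genes were called between replicate numbers of macrophages without LPS than in either LPS comparison. In numbers 5 and 6 (2 HMB and 2 Ctrl arrays), against numbers 1 to 4 (4 HMB and 4 Ctrl arrays), 15 of the 45 genes were higher and 3 were lower, in a limma fit with HMB as a term. Of all probe sets, 11.3% were higher and 7.95% lower. The split was noticed in these same arrays, so low p-values and groups without overlap follow in part from that choice. Those given here and below for the numbers describe the split and do not test it. The 15 were mostly subunits of the standard particle, as are most of the 45 genes. Of the 5 immune genes 2 fell and none rose, and the other gene that fell was the lid subunit Psmd8. Whether these classes differ was not tested. In case HMB and Ctrl arrays of a number are not independent, the fit was repeated on the mean of both per number (2 against 4). It then called 10.3% of all probe sets and 7 of the 45 genes higher: Psmc2, Psmd1, Psmd5, Psmd7, Psmd14, Psme3 and Psmc3ip. It called 1 lower, Psmb9. These were no more than the 8 and 9 genes called for LPS within set A.

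Psmd14, the lid enzyme that removes ubiquitin from substrates, read 13.99 and 14.08 in HMB 5 and 6 and 14.18 and 14.12 in Ctrl 5 and 6. In numbers 1 to 4 it read 12.54, 12.72, 12.91 and 12.96 in HMB and 12.30, 12.72, 12.94 and 12.90 in Ctrl. There was a gap of about a log2 unit and no overlap, and the gene was 1.34 ± 0.18 higher in numbers 5 and 6 (adjusted p = 0.000184). Psmd1, a large scaffold of the base, read 14.15 and 14.06 in HMB 5 and 6 and 14.33 and 14.30 in Ctrl 5 and 6, against 12.84 to 13.36 in HMB 1 to 4 and 12.49 to 13.10 in Ctrl 1 to 4 (1.25 ± 0.18, adjusted p = 0.000399). Psme3, which forms a nuclear activator, was 1.38 ± 0.25 higher, Psmd5 1.32 ± 0.19 and the lid subunit Psmd6 1.27 ± 0.27.

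By role, 3 of 6 constitutive beta subunits were higher in numbers 5 and 6 (Psmb2, Psmb6 and Psmb7), 1 of 7 alpha subunits (Psma4), 3 of 6 ATPases (Psmc2, Psmc4 and Psmc5), 1 of 3 other base subunits (Psmd1) and 4 of 8 lid subunits (Psmd6, Psmd7, Psmd12 and Psmd14). Psmd5 and Psme3 were higher as well. Psmc3ip, a factor of meiotic recombination, was called too, although its signals of 5.85 to 7.90 without LPS lay under the percentile of the negative controls on every array. The lid subunit Psmd8 went the other way, with −0.99 ± 0.24 (adjusted p = 0.00947).

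Psmb9 was the immune gene that differed most. It read 11.35 and 11.37 in HMB 5 and 6 and 11.49 and 11.73 in Ctrl 5 and 6. In numbers 1 to 4 it read 12.27, 12.27, 12.48 and 12.26 in HMB and 12.21, 12.71, 12.61 and 12.44 in Ctrl. It fell by 0.92 ± 0.16 (adjusted p = 0.00128), with no overlap. Its counterpart Psmb6 read 14.71 and 14.87 in HMB 5 and 6 and 14.53 and 14.59 in Ctrl 5 and 6, against 13.98 to 14.16 in HMB 1 to 4 and 13.83 to 14.17 in Ctrl 1 to 4, 0.62 ± 0.15 higher (adjusted p = 0.0115).

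Psmb8 read 13.94 and 13.89 in HMB 5 and 6 and 14.01 and 13.83 in Ctrl 5 and 6, against 14.26 to 14.88 in HMB 1 to 4 and 14.13 to 14.88 in Ctrl 1 to 4. It fell by 0.61 ± 0.19 (adjusted p = 0.0371), again with no overlap. Psmb10, Psme1 and Psme2 were at 0.01 ± 0.27, −0.14 ± 0.24 and −0.03 ± 0.29, so the immune genes did not move as 1 block. Groups of arrays did not overlap for 16 of the 45 genes with numbers 5 and 6 higher and for 3 with them lower, against 10.1% and 6.08% of all probe sets. Between Ctrl arrays alone, 6 genes were higher and 1, Psmb9, was lower (8.61% of all probe sets were called, 5.36% higher and 3.25% lower).

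**Figure D5:**
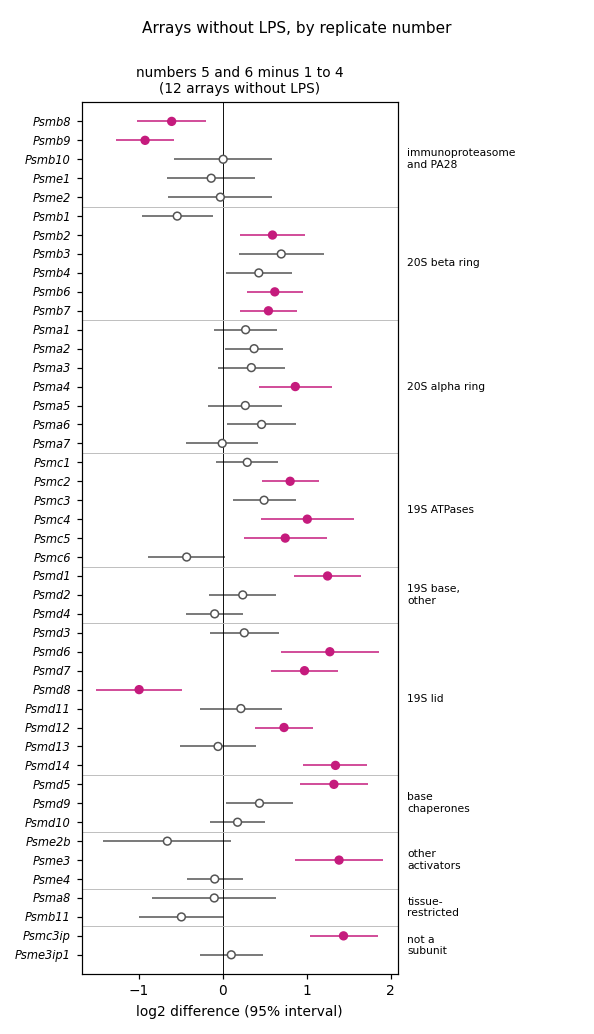
Log2 difference (horizontal axis, with 95% interval) of each of the 45 genes in numbers 5 and 6 minus numbers 1 to 4, over the 12 arrays without LPS. Filled points passed the threshold: 15 genes to the right, with Psmd14, Psmd5 and Psmd1 between 1.25 and 1.34, and 3 to the left, namely Psmb9 (−0.92), Psmb8 (−0.61) and Psmd8 (−0.99).

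Some genes that work with Psmb9 and Psmb8 in antigen processing were lower as well in numbers 5 and 6, but most uncalled genes of that list lay above 0. Of all probe sets, 11.3% were called higher and 7.95% lower. Of 15 genes of class I processing, 5 fell and 1 rose (Thop1), and of 14 interferon regulators, 4 fell and 1 rose (Socs1), both risen genes being under the percentile of the negative controls on every array without LPS. On means per number the same 6 genes of class I processing passed, but only 1 of the 4 interferon regulators still fell (Irf2), 1 rose (Socs1), and of the genes of assembly and regulation 1 rose (Psmg2). The peptide transporter genes Tap1 and Tap2 fell (−1.93 ± 0.24 and −1.15 ± 0.21), as did the class I heavy chains H2-K1, H2-D1 and H2-T23 (−0.89 ± 0.18, −1.13 ± 0.20 and −2.12 ± 0.18). Irf1 and Irf2, transcription factors of the interferon response, fell as well (−0.80 ± 0.18 and −1.44 ± 0.18). Of 10 genes of assembly and regulation 4 rose, among them Pomp (0.92 ± 0.21) and the core chaperones Psmg1 and Psmg2 (0.76 ± 0.21 and 1.41 ± 0.28), and 1 fell (Akirin2). Psmg2 exceeded the percentile on 10 of 22 arrays. Of 11 associated factors 2 rose, Usp14 and Ube3c, and neither passed on means per number. All 4 proliferation markers rose (3 on means per number), and 3 of 6 fibroblast markers fell (Col1a1, Col1a2 and Col3a1). Col1a1 exceeded the percentile on Ctrl 3 alone, Col1a2 on HMB 2 alone and Col3a1 on no array. The part of the proliferation and fibroblast markers in these differences was not tested.

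The promoters of Psmb9 and Psmb8 are shown because both genes fell in the fit that counts every array. Only Psmb9 passed on means per number. Psmb9 and Tap1 start 226 bases apart on opposite strands of chromosome 17, so that the stretch before Psmb9 (chr17:34187331-34187580, minus strand) is also that before Tap1, which fell with it. Psmb8 lies on the same chromosome (chr17:34197945-34198194, plus strand). Both are RefSeq sequences of GRCm38.p6, 250 bases up to the start. Capitals mark a gamma-activated site, a motif of genes that respond to interferon-γ (TTC, 3 free bases, GAA), in Psmb8.
Psmb9: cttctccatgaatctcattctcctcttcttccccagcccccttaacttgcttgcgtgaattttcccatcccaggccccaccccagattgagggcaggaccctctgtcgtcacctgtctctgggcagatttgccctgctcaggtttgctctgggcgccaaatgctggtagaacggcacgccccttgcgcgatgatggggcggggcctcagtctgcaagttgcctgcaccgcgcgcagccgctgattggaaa
Psmb8: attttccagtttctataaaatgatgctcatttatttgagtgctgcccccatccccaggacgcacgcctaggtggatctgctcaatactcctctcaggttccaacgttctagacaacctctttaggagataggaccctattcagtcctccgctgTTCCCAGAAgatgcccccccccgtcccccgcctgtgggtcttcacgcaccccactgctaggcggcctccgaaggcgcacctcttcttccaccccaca

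Promoter windows were found for 38 of the 45 genes (42 windows, since some had several starts) and searched on both strands for 3 motifs. Shares of the 38 genes count a gene once if any of its windows matched, whereas shares of all promoters count windows. Psmb8 was the only one of the 38 genes with a gamma-activated site (2.63%, against 7.02% of all 32851 promoter windows), and its first letter lay 97 bases before the start. The core of the interferon-stimulated response element (GAAA, 2 free bases, GAA) was found in 3 genes, Psmb3, Psmd4 and Psmd9 (7.89%, against 7.13% of all). The core of the antioxidant response element, read by the factors that induce proteasome genes (TGAC, 3 free bases, GC), was found in Psmb6, Psmc6, Psmd9 and Psmd12 (10.5%, against 10.2%). A match is a description of letters and not a site in use.

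HMB had no detectable effect on any of the 45 genes, in macrophages with or without LPS. The limma fit called 0 of 45 for HMB+LPS minus LPS and 0 for HMB minus Ctrl, with 0 at an unadjusted p under 0.05 in each, and 0% of all 22206 probe sets in both. The methods' t-test called 0 and 0 after adjustment, and 0 and 1 before it. Of all probe sets, it called 0 and 0 after adjustment, and 652 and 587 before it. Differences ran from −0.41 to 0.41 and from −0.25 to 0.27, and no gene had groups that did not overlap, where 0.239% and 0.0585% of all probe sets did so upward and 0.203% and 0.0495% downward. A p that misses the threshold does not show that levels were equal, and the intervals below give what these arrays allow.

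Among the immune genes, HMB+LPS minus LPS was −0.01 ± 0.25 for Psmb8 (95% interval −0.52 to 0.50), −0.26 ± 0.28 for Psmb9 (−0.85 to 0.33), −0.12 ± 0.40 for Psmb10 (−0.94 to 0.71), −0.05 ± 0.26 for Psme1 (−0.58 to 0.48) and 0.24 ± 0.27 for Psme2 (−0.32 to 0.80). HMB minus Ctrl was −0.06 ± 0.23 for Psmb8 (−0.53 to 0.40), −0.20 ± 0.26 for Psmb9 (−0.73 to 0.34), −0.21 ± 0.36 for Psmb10 (−0.96 to 0.54), 0.16 ± 0.23 for Psme1 (−0.33 to 0.64) and −0.09 ± 0.25 for Psme2 (−0.61 to 0.42). No interval excluded 0.

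The smallest p among the 45 genes belonged to other members. For HMB+LPS minus LPS it was that of Psmd10, whose values are given above, with 0.41 ± 0.22 (adjusted p = 1). In set B alone, its difference was 0.92 ± 0.24 (adjusted p = 0.121), and in set A, where 0% were called, it was 0.07. Within sets, 0 of 45 genes were called for either HMB comparison; in set B, 0.356% of all probe sets were called higher and 0.126% lower for HMB+LPS minus LPS, and 0.027% and 0.0225% for HMB minus Ctrl. At an unadjusted p under 0.05 there was none in set A, and in set B there were Psmd10 and Psma1 for HMB+LPS minus LPS and Psma8 for HMB minus Ctrl. The share of all probe sets at that unadjusted threshold is not given here, so these genes are not read as a result. Psmd3, a lid subunit, read 13.08, 13.25, 13.41, 12.60 and 12.62 in HMB+LPS, against 13.34, 12.90, 13.63, 13.54 and 12.99 in LPS (−0.29 ± 0.22). The ATPase Psmc3 read 13.62, 13.08, 12.98, 13.21 and 13.33 in HMB+LPS, against 13.67, 13.37, 13.21, 13.62 and 13.67 in LPS (−0.26 ± 0.21). The groups overlapped for each of these genes. Psma8 came next by p, under the percentile of the negative controls on every array.

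For HMB minus Ctrl the smallest p was that of Psme4, an activator also named PA200. It ran from 12.31 through a median of 12.51 to 12.62 in HMB, against 12.52, 12.73 and 12.86 in Ctrl (−0.25 ± 0.15). It was the only one of the 45 genes that read lower in HMB than in Ctrl in all 6 pairs of the same number, by 0.09 to 0.42, as did 1.82% of all probe sets, and with the number as a block it did not pass (−0.25 ± 0.15, unadjusted p = 0.115, adjusted p = 1, limma). Psmd2, a large subunit of the base, ran through 13.97, 14.38 and 14.66 in HMB, against 13.75, 14.26 and 14.34 in Ctrl (0.16 ± 0.17). Psmc3 ran through 12.92, 13.20 and 13.73 in HMB, against 13.01, 13.55 and 13.79 in Ctrl (−0.15 ± 0.19), and Psmc1 through 12.63, 13.01 and 13.22 in HMB, against 12.44, 12.91 and 13.11 in Ctrl (0.12 ± 0.16). The groups overlapped for all of them.

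The effect of HMB did not differ detectably with LPS either. The difference between both HMB effects was called for 0 of 45 genes (0 at an unadjusted p under 0.05, 0% of all probe sets called), and it ran from −0.38 to 0.50. Psmd10 had the smallest p, with 0.50 ± 0.29, followed by the thymus subunit Psmb11, which lay under the percentile of the negative controls on every array, Psme4 with 0.24 ± 0.22, Psme2 with 0.34 ± 0.37 and Psma2 with 0.19 ± 0.23. Psma2 read 13.84, 13.76, 13.59, 13.60 and 13.65 in HMB+LPS and 13.70, 13.47, 13.67, 13.55 and 13.55 in LPS, against 12.89, 13.17 and 13.49 in HMB and 13.00, 13.23 and 13.55 in Ctrl. Every HMB+LPS array lay above every HMB array, while LPS and Ctrl arrays met between 13.47 and 13.55.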

How the data were processed

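Macrophage RNA was measured on 22 Clariom S arrays (5 HMB+LPS, 5 LPS, 6 HMB, 6 Ctrl). The authors deposited log2 values per probe set, from 0.973 to 19.4; how background was corrected and arrays were normalized is not given in the sources used here. Of 28846 probe sets, 6640 were controls and 22206 were tested as deposited, 19572 of them with 1 symbol in the platform annotation. For a gene with several probe sets, the one with the highest mean was used. Arrays give no depth, and their number limits the precision.

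Differences came from limma 3.58.1 under R 4.3.3, a two-sided moderated test on 4 group means over all arrays, with Benjamini-Hochberg adjustment over 22206 probe sets (threshold 0.05); errors are SE. A fit of 8 means gave values within sets, and arrays above a position of 0.5 formed set B. The scripts were tested on simulated data. The members and lists were chosen with earlier results of these data known. Named were the immune genes, their counterparts, up to 4 further members per comparison with the smallest p, and up to 4 genes per list; further called members and genes were named after their values were seen.

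Deviations from group means of HMB and Ctrl arrays correlated in all 6 pairs of the same number. For 1 to 6, r was 0.627, 0.183, 0.244, 0.307, 0.608 and 0.623. HMB+LPS and HMB arrays also had a positive r in every pair, and the other groups in some pairs only. These deviations contain the split of arrays by number described above, and arrays of different numbers were not compared. The values of r therefore cannot show whether the numbers pair the arrays. Alternatives were median centring, quantile scaling, a filter on dim probe sets and a replicate block. Others were set A alone, set as a term, omission of arrays, array weights, and the methods' t-test.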

Additional observations from a re-analysis of the deposited data

Results flagged for a closer look

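Over 92 groups of arrays, 4 for each of 23 named genes, chance alone would set an array apart in about 1 group in 20, and 4 did. Psme1 read 14.49 on HMB 1, with the nearest other HMB array at 15.44, and HMB 1 is an array of low control separation. Psma3 read 13.20 on HMB+LPS 2, with the nearest at 12.34, also on an array of low separation. Psmd2 read 13.75 on Ctrl 4 (nearest 14.16). Psma8 read 6.45 on Ctrl 6 (nearest 5.54), under the percentile of the negative controls.

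The difference in LPS response between sets was called for 2 genes, in a fit to sets that were read from these same arrays. Set B minus set A was −1.60 for Psmd5 and −1.25 for Psmd10 in LPS minus Ctrl, and −1.84 for Psmd5 in HMB+LPS minus HMB.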

How the results depend on the processing

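Counts of called proteasome genes depended on the processing. Most are given here without the share of all probe sets called. They therefore do not show whether a change with the setting was particular to the proteasome genes. For LPS minus Ctrl, 2 genes were called, 1 with median centring or array weights, 4 with a filter on dim probe sets or with set as a term, 5 in a fit of set A arrays alone, and 0 without arrays of low control separation, in a fit of those groups alone or by the methods' t-test after adjustment. For HMB+LPS minus HMB, 2 were called, 5 with the filter or set as a term, 6 in set A alone, 7 with array weights, and 1 without low separation, with those groups alone or by the adjusted t-test. Leaving out 1 array at a time gave 1 to 2 and 1 to 4. It gave 6 to 14 (LPS minus Ctrl) and 4 to 13 (HMB+LPS minus HMB) in set A, 0 to 1 in set B for HMB+LPS minus HMB, 0 to 3 for each difference between sets, and 13 to 20 for numbers 5 and 6. Alternatives added after the data were seen gave 4 in set A for LPS minus Ctrl without low separation and 8 for the numbers with means per number, where Ctrl arrays alone gave 7. HMB comparisons stayed at 0 throughout. With the replicate block, 2 genes were called in each LPS comparison, Psma6 at an adjusted p of 0.0512 in HMB+LPS minus HMB, and no call for HMB changed.

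Signs of uncalled immune genes turned. Psme2 in LPS minus Ctrl was −0.14 with the replicate block, −0.19 in set A alone, −0.0046 with set as a term, −0.033 without low separation, −0.049 with array weights and −0.10 to 0.16 with 1 array left out. Psmb8 there was −0.10 in set A alone, −0.060 without low separation and −0.045 to 0.18 with 1 array left out, and in HMB+LPS minus HMB −0.16 in set A alone. Psmb10 and Psmb9 in HMB+LPS minus HMB ranged over −0.44 to 0.052 and −0.016 to 0.23, and Psmb10 was 0.0945 without low separation. The cause was not tested. Of 462 values of single genes under alternatives, 403 kept direction and side of the threshold, 38 lost a call and 21 turned. With 2 arrays per group in set B, small differences there cannot be resolved.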
